A study of Mus musculus with 53 samples.

Results

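The comparison described here is that of ethanol-dependent with non-dependent mice in the amygdala's central nucleus (CeA), in animals fed control chow, in which microglia were not depleted. Its members were taken from the labels alone, as every CeA library labelled control diet, which gave 11 of the 53 libraries of the study: 5 from dependent mice (numbers 1, 2, 3, 9 and 11) and 6 from non-dependent mice (numbers 14, 15, 16, 17, 19 and 20). The study sequenced 3'-biased libraries of whole-tissue RNA from the CeA and from the medial prefrontal cortex (mPFC) of mice that had or had not been made dependent, with or without PLX5622, which depletes microglia by blocking their survival receptor CSF1R. All animals were C57BL6/J mice taken at postnatal day 119, and the labels describe a phase of 4 weeks in which chronic intermittent ethanol exposure was combined with voluntary drinking of 15% ethanol from a choice of bottles, followed by tissue collection 24 hours after the last exposure. Punches of the CeA were taken from frozen slices 300 µm thick. The labels attach the same treatment text to every mouse, so whether the non-dependent mice drank water or ethanol remains unknown (not given in the sources used here). No batch, cage or date is labelled, and the replicate numbers are mouse numbers, so that p-values measure the spread between mice.

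The CeA is the main output nucleus of the amygdala and is built mostly of GABA-releasing neurons, many of which carry a neuropeptide such as somatostatin, enkephalin, dynorphin, neurotensin or corticotropin-releasing hormone (CRH). It is known for its part in fear, stress and the negative state of ethanol withdrawal, in which CRH and dynorphin signalling in this nucleus have been widely studied in rodents. Ethanol acts on GABA-A and glutamate receptors and on several potassium channels, and glucocorticoids released in withdrawal act on the same neurons through the glucocorticoid and mineralocorticoid receptors.

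The 11 libraries held 1242295 to 1968971 counts in genes and 17415 to 18362 detected genes. No difference between dependent and non-dependent libraries was detectable in these measures or in the shares of reads that aligned outside genes or on more than 1 gene (exact two-sided permutation tests of 4 measures, adjusted p = 0.983 for each, where 0.00433 is the smallest unadjusted p that 5 against 6 allows). The share of all reads, spike-in included, that lay in genes was not tested. It was 71.97% to 73.04% (median 72.65%) in dependent and 72.79% to 73.40% (median 72.98%) in non-dependent libraries. Artificial spike-in RNA was present in dependent libraries 1, 9 and 11 alone, with 11745, 12174 and 16717 counts or 0.912%, 0.775% and 0.849% of the counts in genes, against 85 to 176 counts in the other 8 libraries. In the whole series the libraries above 1000 such counts, found in both regions and on both diets, were all from dependent mice. Any difference in handling that came with spike-in RNA cannot be told apart from dependence in these libraries. Summed homeostatic microglia markers stood at 487 to 644 CPM in dependent and 399.8 to 548 CPM in non-dependent libraries, against 38.5 to 68.8 CPM in the 8 CeA libraries of the PLX5622 diet (CPM, counts per 1000000 counts of the TMM-scaled library). Number 16 is a control mouse by its CeA label and a PLX5622 mouse by its mPFC label, and its CeA library held 482 CPM of these markers, within the range of the control libraries. Markers of CeA neurons were present in every library, with Sst at 459 to 634 CPM, Penk at 187 to 869 CPM and Prkcd at 8.09 to 25.8 CPM. Dlk1 was listed at 0, as were genes that every cell uses, such as Cox4i1 and Uqcrc1 of the respiratory chain, so a 0 shows only that no read was assigned. Striatal neuron markers summed to 1907 to 3929 CPM in dependent and 1380.2 to 4639 CPM in non-dependent libraries and were highest in dependent 11 and non-dependent 19. Libraries also differed in choroid plexus RNA, with transthyretin (Ttr) at 27.2 CPM in dependent 11 and 2458 CPM in dependent 2. In bulk tissue, fewer cells of a type and less RNA per cell cannot be told apart.

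No gene passed an adjusted p of 0.05 between dependent and non-dependent CeA in edgeR's quasi-likelihood test, out of 11721 genes tested (0.0% called). At an unadjusted p under 0.05 there were 726 genes (6.19%), 444 of them higher (3.79%) and 282 lower (2.41%) in dependent mice. DESeq2 called 1 gene and had 444 at an unadjusted p under 0.05, and limma voom called 0 and had 742. The values below therefore describe the mice measured, and no gene among them is called changed. The 88 genes named by rule are the 12 protein-coding genes with the smallest p in each direction and the 2 members with the smallest p of each of 35 lists. Dependent mice are given in the order 1, 2, 3, 9 and 11, and non-dependent mice by the lowest, the highest and the median of 6. Where a list median moved by over 1.5 times or changed sign with 1 library left out, the lowest and the highest such value follow, or the value without the library named. Medians without the libraries that hold spike-in RNA are given for some lists here and for others in the section on processing.

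The gene closest to the threshold was Wwox (chromosome 8, 114439655 to 115352708, GRCm38), an oxidoreductase with WW domains that spans a common fragile site. It was measured at 164, 191, 159, 146.6 and 191 CPM in the dependent mice and at 104.7 to 142.6 (median 119.8) CPM in the non-dependent ones, a log2 fold change of 0.45 ± 0.085 (SE; edgeR adjusted p = 0.0643). Every dependent library lay above every non-dependent one, though dependent 9 and non-dependent 16 and 20 lay close together. DESeq2 gave Wwox an adjusted p of 0.0386, and edgeR one of 0.203 with these groups alone in the fit, 0.404 without dependent 11 and 0.0212 without dependent 9, within a range of 0.00100 (no filter on low counts) to 0.648 (a covariate for the share of long genes) over all alternatives run.

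The next genes of the same direction were the acid-sensing ion channel gene Asic2 (chromosome 11, 80880169 to 81968457), the glypican gene Gpc6 (chromosome 14, 116925315 to 117976544), which codes for a heparan sulfate proteoglycan of the cell surface, and Cabp1 (chromosome 5, 115168689 to 115194381), a neuronal calcium sensor. Asic2 stood at 757, 744, 776, 792 and 969 CPM in dependent and 534 to 698 (median 648) CPM in non-dependent mice, with a log2 fold change of 0.36 ± 0.080 (edgeR adjusted p = 0.176). Gpc6 stood at 306, 268, 282, 265 and 296 CPM against 179 to 259 (median 223) CPM, at 0.34 ± 0.075. The groups did not overlap for either gene, and dependent 11 was the highest library for Asic2 by a wide margin. Cabp1 was at 59.8, 54.9, 55.7, 49.9 and 42.7 CPM in dependent and 32.3 to 40.2 (median 35.6) CPM in non-dependent mice, a log2 fold change of 0.51 ± 0.12 (edgeR adjusted p = 0.234). It is one of the leading genes of ordinary span, 25.7 kb, and its groups were also apart, with dependent 11 the nearest to the non-dependent mice.

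Mt3, the brain form of metallothionein, a small zinc-binding protein, was at 197, 198, 209.7, 169.6 and 237 CPM in dependent and 126 to 183 (median 158) CPM in non-dependent mice (0.38 ± 0.088; edgeR adjusted p = 0.234). Zfp366, a zinc finger transcription factor, was at 16.7, 21.8, 10.8, 10.2 and 11.3 CPM against 5.11 to 8.08 (median 7.39) CPM, a log2 fold change of 0.96 ± 0.23 at a low level. Dependent 9 fell inside the non-dependent range for Mt3, whereas the groups were apart for Zfp366, with dependent 1 and 2 the highest. The remaining named genes above 0 were Serp2 (a small protein of the endoplasmic reticulum translocon) at 0.42 ± 0.10, the receptor phosphatase Ptprj at 0.36 ± 0.089, Palm2 at 0.52 ± 0.13, Tmem181a at 0.79 ± 0.21, the carboxypeptidase gene Agbl4 at 0.27 ± 0.070 and Lhfp at 0.66 ± 0.17, all log2 fold changes with SE and an edgeR adjusted p of 0.234 or more.

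**Figure D1:**
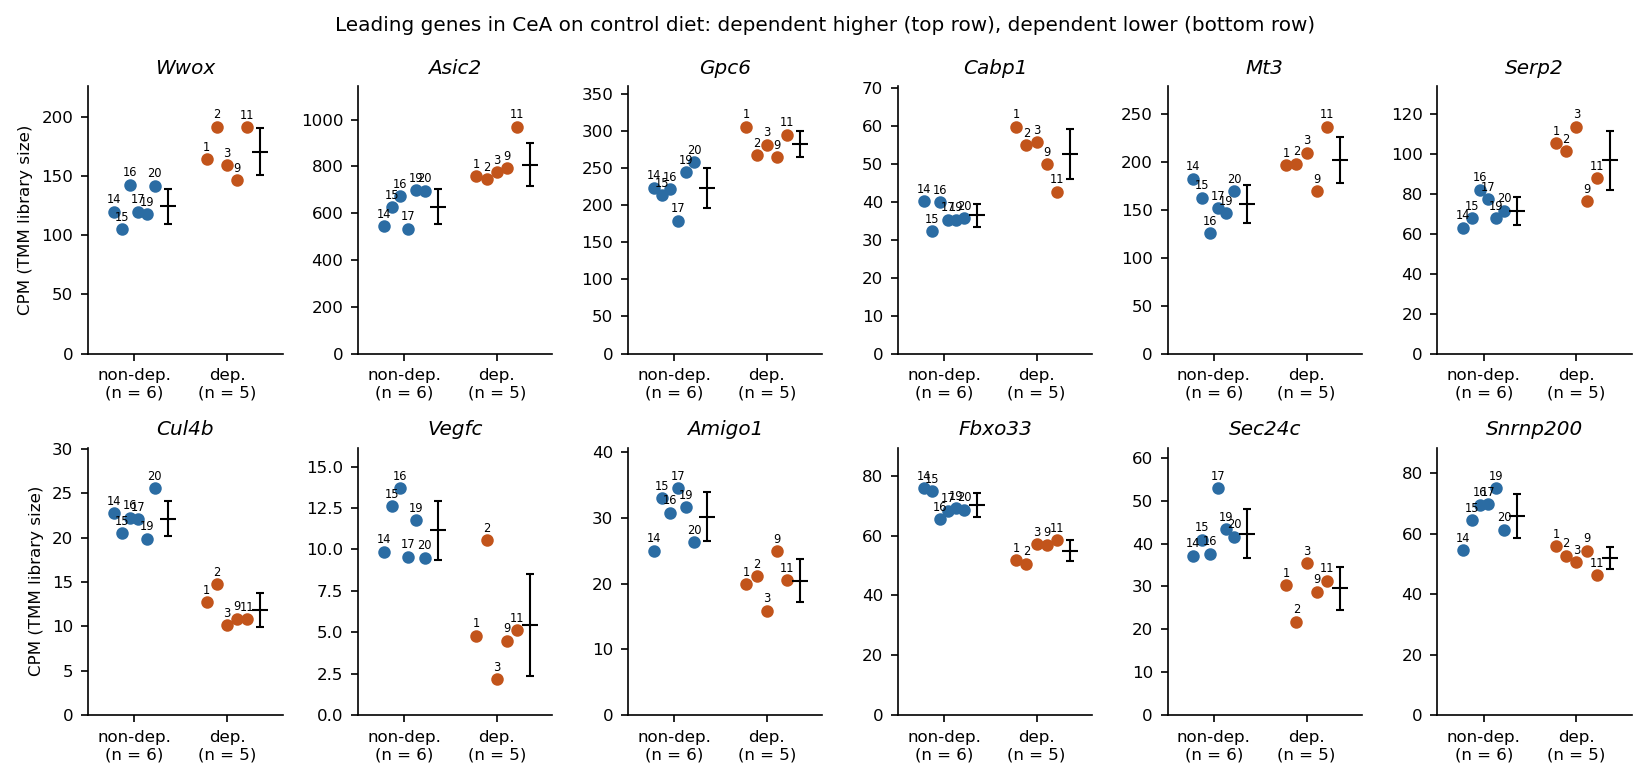
CPM of the 6 genes of smallest p in each direction, with 1 point per mouse labelled by mouse number, and mean ± SD beside the points (non-dependent n = 6, dependent n = 5; axes start at 0). Cul4b in dependent mice sits at 10.1 to 14.8 CPM, below all non-dependent mice at 19.9 to 25.6 CPM, while for Mt3, Serp2, Vegfc and Snrnp200 1 dependent mouse lies within the non-dependent range.

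In the other direction the smallest p belonged to Cul4b (chromosome X, 38533274 to 38576196), the scaffold of a ubiquitin ligase encoded on the X chromosome. Its level was 12.8, 14.8, 10.1, 10.9 and 10.8 CPM in dependent mice and 19.9 to 25.6 (median 22.1) CPM in non-dependent mice, a log2 fold change of -0.91 ± 0.19 (edgeR adjusted p = 0.176). These groups were well apart, with the highest dependent mouse at 14.8 CPM and the lowest non-dependent one at 19.9 CPM. The log2 fold change lay between -0.996 and -0.86 in the fits that left out 1 of the 11 libraries compared. Vegfc, a growth factor of lymphatic vessels, was at 4.78, 10.6, 2.17, 4.48 and 5.14 CPM against 9.50 to 13.7 (median 10.8) CPM (-1.04 ± 0.26), and here dependent 2 lay among the non-dependent mice.

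The genes of next smallest p follow. Amigo1, an adhesion protein that associates with the potassium channel Kv2.1, was at 19.9, 21.1, 15.9, 25.0 and 20.6 CPM in dependent and 25.0 to 34.5 (median 31.2) CPM in non-dependent mice (-0.55 ± 0.14). Fbxo33, an F-box subunit of a ubiquitin ligase, was at 51.8, 50.7, 57.1, 57.0 and 58.6 CPM against 65.6 to 75.9 (median 68.9) CPM (-0.35 ± 0.093). Both had separate groups, with dependent 9 of Amigo1 at the lower edge of the non-dependent mice. Sec24c, a coat protein of vesicles leaving the endoplasmic reticulum, had a log2 fold change of -0.51 ± 0.14, the spliceosome helicase gene Snrnp200 -0.35 ± 0.097, the splicing regulator Luc7l -0.31 ± 0.088 and Fkbp4, a co-chaperone of steroid receptors, -0.31 ± 0.092. Rtl6, Magee1, Kcne1l and Hdgfl2 completed the 12 genes, at -0.37, -0.29, -0.86 and -0.43, and the edgeR adjusted p of these 12 ran from 0.176 to 0.512. Of the 24 genes named by p, 7 lay higher and 7 lower in all dependent mice than in all non-dependent mice, where over all genes tested 41 (0.35%) were all higher and 26 (0.222%) all lower. The 24 were chosen by this same contrast, so that count is a description.

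The log2 fold changes went with gene span, the distance from the start to the end of the annotated gene. Of the 7617 genes under 50 kb, 43.9% had a log2 fold change above 0, of the 718 genes from 200 to 500 kb 73.7%, and of the 220 genes of 500 kb or more 92.3%. In that longest class 66 genes had an unadjusted p under 0.05 and a value above 0, and 0 had one below 0, while the class under 50 kb held 169 above and 232 below. The 12 leading genes above 0 included 7 of at least 100 kb and the 12 below 0 included 1 of that span, where 18.7% of all genes tested have that span. Those 7 are Wwox, Asic2, Gpc6, Ptprj, Palm2, Agbl4 and Lhfp. With offsets that remove the trend over gene span in each library they were, in that order, at 0.35, 0.26, 0.24, 0.33, 0.46, 0.16 and 0.60. Without the libraries that hold spike-in RNA they were at 0.49, 0.27, 0.29, 0.31, 0.53, 0.21 and 0.62. Genes of 100 kb or more had a median log2 fold change of 0.059, which was 0.077 above that of shorter genes, and Spearman's rho of span with the log2 fold change was 0.158 across 11716 genes, which share the same 11 libraries and are not replicates. Summed exon length followed the effect less, with a rho of 0.055. Counting of intronic reads is not described (not given in the sources used here), and its part in this relation was not tested.

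The gap between long and short genes differed from mouse to mouse. Against the mean of all 11 libraries, long genes stood at -0.19 relative to short genes in non-dependent 17, at -0.062 and -0.042 in non-dependent 14 and 15, at 0.0096 to 0.046 in non-dependent 16, 19 and 20, and at 0.0064 to 0.074 in the dependent mice. The dependent mice thus sat within the upper part of the non-dependent range or, in dependent 11, above it. Genes of 100 kb or more took 33.9% to 38.0% of counts in non-dependent and 36.9% to 38.9% in dependent libraries, and the groups overlapped. Without non-dependent 17 the gap was 0.044 and the share of genes of 500 kb or more above 0 was 81.4%. The gap was 0.074 without the libraries that hold spike-in RNA, when dependent 2 and 3 remain. That fit also left out dependent mice 6, 7 and 8 of the PLX5622 diet, which hold spike-in RNA too. With dependent 1, 9 and 11 as the only dependent libraries on control diet the gap was 0.079. The share of genes of 500 kb or more above 0 was 87.4% without the spike-in libraries. In the comparison of dependent with non-dependent mice on the PLX5622 diet, which shares no library with this one, 35.0% of those genes lay above 0 and rho was -0.137. In mPFC on control diet the share was 66.7% and rho 0.040.

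**Figure D2:**
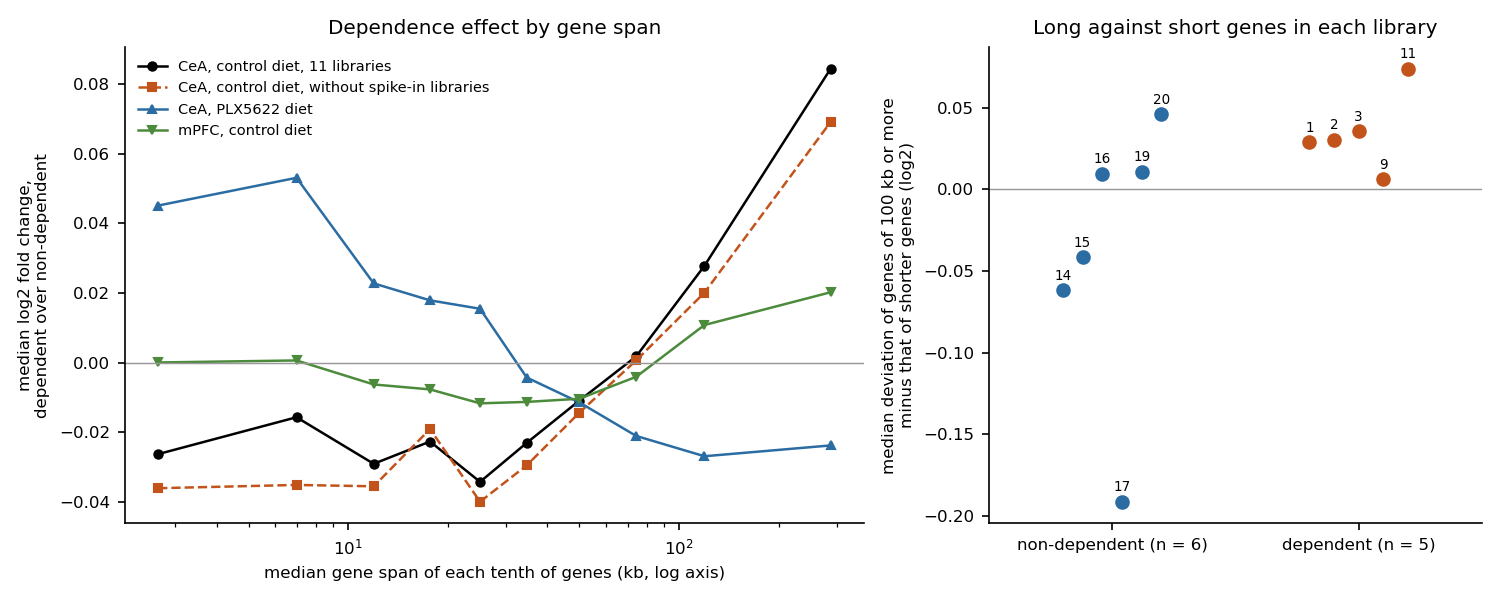
Left, median log2 fold change (dependent over non-dependent) of genes in 10 classes of gene span with equal numbers of genes, on a log axis in kb, for CeA on control diet with all 11 libraries or only those free of spike-in RNA, for CeA on the PLX5622 diet and for mPFC on control diet. Right, the median deviation of genes of 100 kb or more minus that of shorter genes in each CeA control library, labelled by mouse number; non-dependent 17 lies lowest at -0.19, and the curves for control diet in CeA end at 0.084 and 0.069 in the longest class.

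Among the neuropeptides, CRH stood out by size. Crh, the stress peptide of CeA neurons, was measured at 7.97, 7.74, 10.8, 8.32 and 13.4 CPM in dependent mice and at 2.20 to 8.03 (median 5.15) CPM in non-dependent mice, a log2 fold change of 0.97 ± 0.31 (edgeR adjusted p = 0.559). The level was low, with a total of 75 counts in the dependent and 42 in the non-dependent libraries, and dependent 2 and 1 lay just under the highest non-dependent mouse. Its binding protein gene Crhbp was at 0.15 ± 0.15 and the receptor gene Crhr1 at -0.12, both with overlapping groups and Crhbp at -0.031 without the spike-in libraries, while Crhr2, Ucn and Ucn3 were too low to be tested and Ucn2 was listed at 0. Of 18 CeA identity genes tested of 20, 13 lay above 0 with a median of 0.16, against 49.3% and a median of -0.003 for all genes tested. The median was 0.029 without dependent 11 and -0.029 without the libraries that hold spike-in RNA, so its direction was not the same in all subsets. The summed list was highest in dependent 11 at 2514 CPM and in non-dependent 19 at 2424 CPM, the libraries with the most striatal RNA. The part of striatal RNA in the values of this list was not tested. Il1rapl2, a relative of the interleukin-1 receptor accessory protein found at synapses, with a span of 1276 kb, was the other member of the list with an unadjusted p under 0.05, at 0.24 ± 0.088. It was at 0.14 after removal of the trend over span and at 0.25 without the libraries that hold spike-in RNA.

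In the opioid system 6 of 7 genes lay above 0, with a median of 0.14 (0.093 without dependent 11 to 0.26 without non-dependent 16). The dynorphin receptor gene Oprk1 was at 15.2, 16.9, 15.9, 14.7 and 29.8 CPM in dependent and 8.34 to 28.7 (median 11.0) CPM in non-dependent mice (0.52 ± 0.29; edgeR adjusted p = 0.840). The 4 dependent mice other than 11 had 14.7 to 16.9 CPM, above 5 of the 6 non-dependent mice at 8.34 to 11.8 CPM, and non-dependent 19 and dependent 11 stood apart at 28.7 and 29.8 CPM. Both are the libraries with the most striatal RNA, and the part of that in the Oprk1 values was not tested. The peptide genes Penk and Pdyn were at 0.30 and 0.31 with wide overlap, and the nociceptin receptor gene Oprl1 at -0.19 ± 0.11. The summed opioid list was also highest in dependent 11 and non-dependent 19, at 1155 and 1107 CPM. The part of striatal RNA in the peptide genes was not tested either. Among other neuropeptides and their receptors 10 of 17 lay above 0 (median 0.035; -0.030 without dependent 9 to 0.10 without dependent 11). Neuropeptide Y (Npy) was at 33.5, 29.6, 38.3, 35.8 and 32.9 CPM against 18.1 to 39.7 (median 25.5) CPM (0.35 ± 0.15). All dependent mice exceeded every non-dependent mouse other than 17, which was the highest of all. Adcyap1, the peptide PACAP, was at 0.36 ± 0.27.

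Gabrg3, the gamma-3 subunit of the GABA-A receptor (chromosome 7, 56716465 to 57387188), was at 447, 440.4, 466.5, 460.2 and 566 CPM in dependent and 260.2 to 424 (median 352) CPM in non-dependent mice, a log2 fold change of 0.46 ± 0.11 (edgeR adjusted p = 0.322), and every dependent mouse lay above every non-dependent one. With offsets that remove the trend over gene span in each library it was at 0.36. Of the GABA-A receptor genes 8 of 13 lay above 0 (median 0.081; 0.0014 after removal of that trend and 0.034 without dependent 2). Gabrd, the subunit of extrasynaptic receptors, was at -0.35. The genes of GABA synthesis and transport, Gad1, Gad2 and the transporters among them, had 3 of 6 above 0 and values between -0.078 and 0.046. Their median ran from -0.095 without dependent 11 to 0.040 without dependent 1.

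Of the glutamate receptor genes 17 of 24 lay above 0, with a median of 0.12 (0.028 after removal of the trend over span and 0.074 without dependent 11). The median span of this list is 349 kb, and 6 members had an unadjusted p under 0.05, each with a value above 0. Among all 718 genes from 200 to 500 kb, 73.7% lay above 0 and 92 had such a p with a value above 0. Grm8, a presynaptic metabotropic receptor, was at 328, 316, 325, 289 and 327 CPM in dependent and 217 to 309 (median 259.9) CPM in non-dependent mice (0.26 ± 0.074; edgeR adjusted p = 0.395). Dependent 9 lay within the non-dependent range and the other dependent mice above it. Its relative Grm7 was at 0.17 ± 0.069, and the values after removal of the trend over span were 0.15 and 0.070.

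Ethanol-sensitive potassium channels lay above 0 in 9 of 11 genes (median 0.11; 0.048 without dependent 1 and 0.038 after removal of the trend over span). The small-conductance channel gene Kcnn2 was at 138.7, 127, 122.95, 128.02 and 133.6 CPM in dependent and 98.1 to 122.9 (median 108.7) CPM in non-dependent mice (0.24 ± 0.083), groups that did not overlap, although dependent 3 and non-dependent 14 lay next to each other. Its log2 fold change was 0.14 after removal of the trend over span and 0.18 without the libraries that hold spike-in RNA. Kcnma1, the calcium-activated channel that ethanol opens, was at 0.11 and Kcnq3 at 0.14. Voltage-gated calcium channel genes lay above 0 in 11 of 15 (median 0.077; -0.0041 after removal of the trend over span, 0.014 without the libraries that hold spike-in RNA and 0.051 without dependent 11). Cacna2d3 was at 0.24 ± 0.20 and Cacnb4 at 0.14 ± 0.11. Dependent 11 was the highest library for Cacna2d3, at 531 CPM.

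Synaptic adhesion genes, the list with the longest genes (median span 1069 kb), lay above 0 in 28 of 29 cases, with a median of 0.13. An unadjusted p under 0.05 with a value above 0 was found for 10 of them, and for 3.79% of all genes tested. Among all 220 genes of 500 kb or more, 92.3% lay above 0 and 66 had such a p with a value above 0. Nrxn3, a presynaptic neurexin, was at 2799.6, 2771, 2809.8, 2817 and 3247 CPM in dependent and 2026 to 2776 (median 2449) CPM in non-dependent mice (0.26 ± 0.078). Grip1, a scaffold of AMPA receptors, was at 401, 334, 333, 355 and 415 CPM against 226 to 348 (median 303) CPM (0.31 ± 0.084; edgeR adjusted p = 0.340). Dependent mice filled the upper end of both ranges, with 1 mouse of Nrxn3 and 2 of Grip1 inside the non-dependent range. The list median was 0.092 without non-dependent 17, 0.12 when the spike-in libraries were left out and 0.031 after removal of the trend over span, and on the PLX5622 diet it was -0.010 with 10 of 29 above 0 (50.8% of all genes there). Nlgn3, of 29 genes tested the 1 below 0, was at -0.16. Ntrk2, the receptor of brain-derived neurotrophic factor, was at 664, 608, 689, 679 and 658 CPM in dependent and 564 to 607 (median 574) CPM in non-dependent mice (0.19 ± 0.057; edgeR adjusted p = 0.467), and its groups did not overlap, with dependent 2 next to non-dependent 20. The neurotrophin list lay above 0 in 5 of 7 (median 0.13; 0.024 after removal of that trend), and its member Sorcs3 was at 0.14 ± 0.075. The perineuronal net and matrix list lay above 0 in 8 of 14 (median 0.043; 0.011 without dependent 3 to 0.092 without dependent 2, and -0.0028 after removal of the trend). The glypican Gpc5 was at 0.20 ± 0.078. Endocannabinoid genes lay above 0 in 5 of 7 (median 0.047; -0.0028 without dependent 1 to 0.082 without dependent 3, and -0.027 without the spike-in libraries). The lipase genes Dagla and Mgll were at 0.13 and 0.12.

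**Figure D3:**
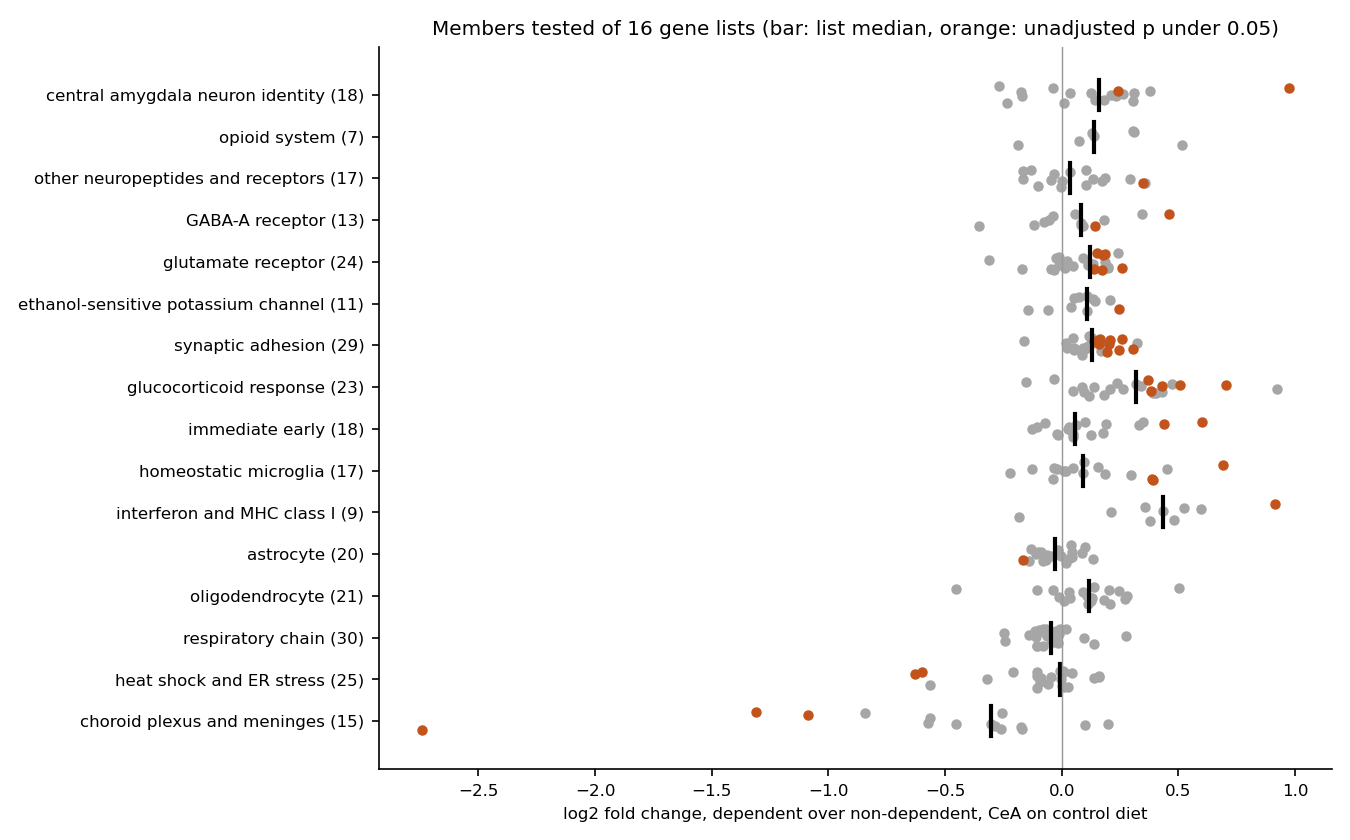
Log2 fold changes (dependent over non-dependent, CeA on control diet) of the members tested of 16 gene lists, with 1 point per gene, the number tested in brackets, the list median as a bar and genes with an unadjusted p under 0.05 in orange. Glucocorticoid response and synaptic adhesion genes lie mostly above 0, with medians of 0.32 and 0.13, and choroid plexus and meninges genes mostly below, with a median of -0.30 that becomes 0.42 without the libraries that hold spike-in RNA.

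Genes of the glucocorticoid response list, which also holds the receptor gene Nr3c2, lay above 0 in 21 of 23 cases tested of 28, with a median of 0.32. Of all genes tested 49.3% lay above 0, with a median of -0.003. The clock gene Per1, which glucocorticoids also induce, was at 41.5, 38.0, 36.2, 36.5 and 47.3 CPM in dependent and 26.0 to 36.8 (median 29.6) CPM in non-dependent mice (0.38 ± 0.13; edgeR adjusted p = 0.630), and 1 non-dependent mouse reached into the dependent range. Zbtb16, a zinc finger repressor, was at 95.7, 123.8, 107.8, 103.1 and 131 CPM against 43.9 to 105.4 (median 87.7) CPM (0.50 ± 0.19). Sgk1, the serum and glucocorticoid regulated kinase, was at 116.4, 172, 136.7, 155 and 209 CPM against 76.4 to 185 (median 121.4) CPM (0.41 ± 0.20). The groups overlapped for both of these genes. Non-dependent 16 had the lowest levels of Zbtb16, of Fkbp5 at 37.1 CPM and of the lipid droplet gene Plin4 at 1.14 CPM, and dependent 11 the highest of Zbtb16, Sgk1 and Plin4. Of the 23 genes, 22 lay above their non-dependent mean in dependent 11, 19 in dependent 2, 17 each in dependent 1 and 9 and 11 in dependent 3, where the non-dependent mice ran from 4 genes in mouse 16 to 17 genes in mouse 15. The list median was 0.20 without dependent 11, 0.26 without dependent 2 and 0.16 with all 3 spike-in libraries left out, among them dependent 11. The receptor genes Nr3c1 and Nr3c2 themselves were at -0.032 and 0.085.

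The metallothionein genes Mt1 and Mt2 are induced both by zinc and by glucocorticoids. Mt1 was at 319.7, 668, 299, 305 and 399 CPM in dependent and 245 to 384 (median 287) CPM in non-dependent mice (0.43 ± 0.19). Mt2 was at 92.5, 213, 94.02, 89.0 and 138.8 CPM against 61.6 to 106.95 (median 74.4) CPM (0.71 ± 0.23; edgeR adjusted p = 0.660). Dependent 2 carried the highest level of both, and without it the log2 fold changes were 0.17 and 0.44. For Mt3, in contrast, dependent 11 was highest and the value without dependent 2 was 0.38. Mt3, Mt2 and Mt1 lie next to each other on chromosome 8, within 94152607 to 94180327 of GRCm38. Windows of 30 bases from RefSeq promoters (GRCm38.p6, from 250 bases before to 50 after the start) show the motifs searched in these genes, in capitals, the first pair with a glucocorticoid response element (the half-site GNACA, 3 bases of any kind and its reverse complement TGTNC) and the second pair with a metal response element core (TGCACNC or TGCGCNC):
Mt1 (chr8:94178987-94179016, + strand): cactatagGGACATGATGTTCcacacgtca
Sgk1 (chr10:21993694-21993723, + strand): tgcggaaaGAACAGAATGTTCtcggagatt
Mt1 (chr8:94179055-94179084, + strand): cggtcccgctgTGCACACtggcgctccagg
Mt2 (chr8:94172479-94172508, + strand): cgcagacccttTGCGCTCagctcctttgct
Both strands were searched and overlapping matches counted. The glucocorticoid motif was present in 0.475% of 32851 promoters and in 2 of the 20 list genes with a promoter, Mt1 and Sgk1. The metal motif was present in 25.7% of promoters, and 3 or more matches in 1.97%, where Mt1 had 3, Mt2 had 4 and Mt3 had 1. A match describes the letters in this window and says nothing on binding.

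**Figure D4:**
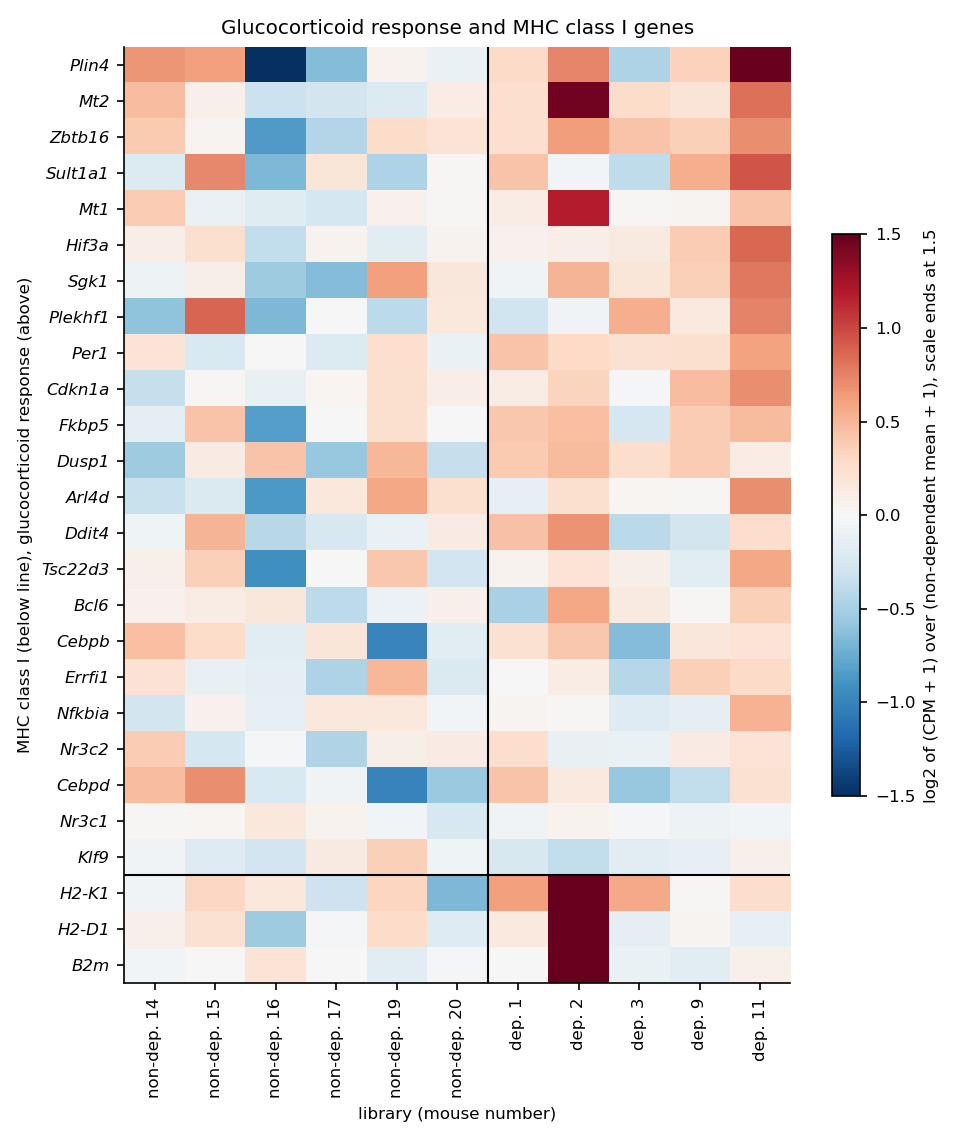
Log2 of CPM + 1 over the non-dependent mean + 1 for the 23 glucocorticoid response genes and the 3 MHC class I genes tested (B2m, H2-K1 and H2-D1), 1 column per library, with the colour scale ending at 1.5 in both directions. Dependent 11 is high in most of the upper block and non-dependent 16 low, and the lower block is highest in dependent 2 for all 3 genes, where H2-K1 was at 68.2 CPM.

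Immediate early genes, which neuronal activity induces, lay above 0 in 13 of 18 cases (median 0.055), but with 1 library left out the median ran from -0.030 without dependent 1 to 0.15 without dependent 11. Fos was at 27.1, 22.5, 27.5, 28.2 and 22.1 CPM in dependent and 11.0 to 26.8 (median 17.96) CPM in non-dependent mice (0.44 ± 0.19; edgeR adjusted p = 0.753). Fosb was at 22.3, 12.7, 25.3, 21.1 and 17.99 CPM against 9.45 to 17.7 (median 13.1) CPM (0.60 ± 0.21). All dependent mice lay above the non-dependent median of Fos, and dependent 2 lay below that of Fosb. Egr1, Arc and Nr4a1 were at 0.048, -0.018 and 0.047. The clock genes other than Per1 showed no common direction (9 of 17 above 0 with Per1, median 0.0032; -0.015 without non-dependent 15 to 0.031 without non-dependent 16). Bhlhe41 was at -0.21 ± 0.11. The heat shock genes Hspa1a and Hspa1b, near-identical copies between which reads may be split, were at -0.60 ± 0.23 and -0.63 ± 0.28, and Hspb1 at -0.56, in a list of heat shock and endoplasmic reticulum stress genes with 10 of 25 above 0 and a median of -0.0087 (-0.055 without non-dependent 20 to 0.0035 without non-dependent 15).

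Microglial genes were present in both groups at similar sums, and 12 of 17 homeostatic genes lay above 0 (median 0.090; 0.021 without non-dependent 14 to 0.16 without non-dependent 17). The complement and protease genes led. C1qa, a chain of the complement initiator, was at 27.9, 43.6, 26.8, 16.0 and 26.2 CPM in dependent and 10.3 to 24.3 (median 16.9) CPM in non-dependent mice (0.69 ± 0.20; edgeR adjusted p = 0.433). Ctss, a lysosomal cathepsin, was at 58.2, 94.3, 65.8, 54.4 and 78.6 CPM against 47.0 to 59.2 (median 54.8) CPM (0.39 ± 0.12). Dependent 2 was the highest library for both, 4 of 5 dependent mice exceeded the highest C1qa value of the non-dependent mice, and without dependent 2 the values were 0.48 and 0.26. The receptors that mark resting microglia were at -0.021 for P2ry12, -0.039 for Tmem119, 0.090 for Cx3cr1 and 0.18 for Csf1r. Activated microglia genes lay above 0 in 4 of 10 (median -0.030; -0.13 without dependent 11 to 0.020 without non-dependent 20). The receptor kinase gene Axl was at 0.30 ± 0.15. Inflammatory signalling genes lay above 0 in 3 of 8 tested of 21 listed (median -0.017; -0.11 without non-dependent 16 to 0.036 without non-dependent 15). Il6st, the shared signalling receptor of the interleukin-6 family, was at 25.5, 30.3, 30.4, 35.2 and 31.9 CPM in dependent and 32.1 to 52.2 (median 40.4) CPM in non-dependent mice (-0.39 ± 0.13; edgeR adjusted p = 0.607). Dependent 9 alone of the dependent mice lay above the lowest non-dependent mouse.

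The interferon and MHC class I list had the highest median of all lists tested with several members, 0.44 with 8 of 9 above 0, and this rested on 1 mouse. H2-K1, a classical MHC class I gene, was at 24.7, 68.2, 23.9, 16.0 and 19.0 CPM in dependent and 9.50 to 19.9 (median 16.4) CPM in non-dependent mice. B2m, the light chain of these molecules, was at 42.3, 134.4, 39.1, 37.1 and 44.2 CPM against 37.5 to 48.5 (median 41.7) CPM. Dependent 2 exceeded every other library in both, and without it the list median was 0.028 with 5 of 9 above 0. H2-K1 and H2-D1 are close relatives between which reads may be split. The border macrophage list, none of whose members had enough counts to be tested, summed to 119 CPM in dependent 2 and to 16.0 to 32.3 CPM in the other 10 libraries. Most of the sum in dependent 2 came from Cd74 at 56.3 CPM (3.60 to 11.0 CPM elsewhere), H2-Aa at 19.7 CPM and H2-Ab1 at 18.3 CPM. Mrc1 at 5.63 CPM, F13a1 at 6.33 CPM, and Cd163 and Pf4 at 2.11 CPM each lay slightly above all other libraries there. Lyve1, Folr2, Cbr2, Stab1, Ms4a7 and Cd209f, at 0 to 3.52 CPM in dependent 2, lay within the range of the other libraries. Haemoglobin (Hbb-bs) was at 52.8 CPM in dependent 2 and 10.2 to 17.7 CPM elsewhere, and the glutathione transferase gene Gstm1 at 255 CPM against 102.7 to 135.7 CPM. The part of these markers in the values of dependent 2 was not tested.

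Astrocyte genes lay above 0 in 8 of 20 (median -0.030; -0.069 without non-dependent 17 to 0.0047 without non-dependent 14). The glutamate transporter gene Slc1a3 was at -0.17 ± 0.074. Oligodendrocyte genes lay above 0 in 17 of 21 (median 0.12; -0.0026 without dependent 11 to 0.21 without dependent 1). The myelin gene Mobp was at 93.3, 160.4, 81.0, 87.7 and 199 CPM in dependent and 49.2 to 118.9 (median 94.6) CPM in non-dependent mice (0.50 ± 0.32). Dependent 2 and 11 alone stood above the non-dependent mice. In the precursor list 4 of 11 lay above 0 (median -0.059; -0.075 without dependent 9 to -0.014 without dependent 2). Gpr17, a receptor of committed precursors, was at 15.9, 6.33, 13.7, 11.5 and 15.9 CPM against 15.5 to 22.0 (median 17.5) CPM (-0.51 ± 0.19; edgeR adjusted p = 0.691), and the long gene Lhfpl3 at 0.32 ± 0.12. Cortical excitatory neuron genes lay above 0 in 5 of 13 (median -0.033; -0.11 without dependent 1 to 0.056 without dependent 11). Striatal neuron genes lay above 0 in 7 of 16 (median -0.015, -0.22 without dependent 11 and 0.32 without non-dependent 19).

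Fibroblast and choroid plexus genes had 2 of 15 members above 0 and a median of -0.30, a direction that depended on which dependent mice were kept. The median was 0.42 without the libraries that hold spike-in RNA (dependent 2 and 3 kept) and -1.54 with dependent 1, 9 and 11 as the only dependent mice. The collagen gene Col3a1 was at 0, 0, 5.06, 1.92 and 0.514 CPM in dependent and 2.21 to 23.6 (median 6.55) CPM in non-dependent mice (-2.74 ± 0.91; edgeR adjusted p = 0.666). Dcn, a proteoglycan of fibroblasts, was at 27.9, 23.9, 16.6, 16.0 and 8.74 CPM against 14.0 to 72.8 (median 35.3) CPM (-1.09 ± 0.45). The non-dependent mice spread over a wide range and the groups overlapped for both. Choroid plexus genes varied widely within both groups, Ttr being at 1074, 2458, 2029, 81.9 and 27.2 CPM in dependent and 410.1 to 2074 (median 1470.5) CPM in non-dependent mice, and the list median ran from -0.82 without dependent 2 to -0.043 without dependent 11. Endothelial and mural genes lay above 0 in 6 of 17 (median -0.040; -0.076 without dependent 9 to -0.027 without dependent 1). The smooth muscle actin gene Acta2 was at -1.01 ± 0.48 and the endothelial adhesion gene Esam at -0.48 ± 0.24.

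Metabolic lists lay close to 0. Respiratory chain genes encoded in the nucleus were above 0 in 4 of 30 (median -0.048), and those of the mitochondrial genome in 1 of 8 (median -0.032), lists of short genes whose medians after removal of the trend over span were -0.030 and -0.021. With 1 library left out the medians ran from -0.070 without non-dependent 16 to -0.016 without non-dependent 17 and from -0.071 without non-dependent 17 to 0.0035 without non-dependent 19. The members of smallest p were Ndufs4 at 0.14 and Sdhc at -0.14, mt-Nd6 at -0.13 and mt-Nd4 at -0.070. Cholesterol synthesis genes lay above 0 in 8 of 21 (median -0.033; -0.070 without dependent 2 to 0.052 without non-dependent 17). Sqle was at -0.22 ± 0.12. Genes of ethanol metabolism and antioxidant defence lay above 0 in 8 of 21 (median -0.029; -0.068 without dependent 9 to 8.3e-05 without dependent 1). Gstm1 was at 0.34 ± 0.18, and at 0.061 without dependent 2. SR splicing factor genes were above 0 in 6 of 15 (median -0.053; -0.077 without dependent 2 to -0.0018 without non-dependent 19). Rsrp1 was at 215, 234, 219.9, 220.2 and 207 CPM in dependent and 156 to 202 (median 194) CPM in non-dependent mice (0.25 ± 0.089), groups that did not overlap.

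The same contrast was set beside those of mice fed PLX5622, which lack most microglia (4 dependent and 4 non-dependent CeA libraries), and of mPFC on control diet (9 and 7 libraries). On the PLX5622 diet edgeR called 0 of 11721 genes (712 at an unadjusted p under 0.05, 6.07%), and the interaction of diet with dependence, the test of the difference between the diets, called 0 (553 at an unadjusted p under 0.05, 4.72%). Wwox was at -0.029 ± 0.098 on the PLX5622 diet, with an edgeR adjusted p of the interaction of 0.695, Asic2 at -0.049 ± 0.093 (0.882) and Gpc6 at -0.16 ± 0.087 (0.569). Cabp1 at 0.32 ± 0.14, Serp2 at 0.44 ± 0.11, Cul4b at -0.53 ± 0.22, Vegfc at -0.44 ± 0.29 and Per1 at 0.41 ± 0.15 had the sign they had on control diet. Crh was at 0.22 ± 0.38 and Fos at 1.14 ± 0.21. Glucocorticoid response genes lay above 0 in 15 of 23 on that diet (median 0.12), where 50.8% of all genes did. Since no interaction passed, the 2 diets are not shown to differ in any of these genes. Of the 88 named genes 59 had the same sign on both diets, and of all genes tested 53.1%. Of the 726 genes with an unadjusted p under 0.05 on control diet the share was 57.9%. Pearson's r of the log2 fold changes across 11721 genes was 0.278 and Spearman's rho 0.122, for libraries that share none between the comparisons but share brain region, counting and span of the genes.

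In mPFC on control diet edgeR called 1 of 12331 genes (0.00811%; 740 at an unadjusted p under 0.05, 6.0%), the immediate early gene Jun, at 35.3 ± 2.85 CPM (SD, n = 9) in dependent and 24.3 ± 3.52 CPM (n = 7) in non-dependent mice (0.55 ± 0.099; edgeR adjusted p = 0.0104). No gene was called there once spike-in libraries were dropped, or without non-dependent mPFC mouse 19, 20, 34 or 35. Jun in CeA was at 71.0, 52.8, 61.5, 62.1 and 31.4 CPM in dependent and 42.7 to 67.5 (median 57.9) CPM in non-dependent mice (-0.020 ± 0.20). Among the leading CeA genes, Wwox in mPFC was at 0.050 ± 0.066, Asic2 at 0.040 ± 0.082, Gpc6 at -0.046 ± 0.13, Cabp1 at -0.079 ± 0.065 and Cul4b at -0.077 ± 0.16, each with an edgeR adjusted p above 0.05. Lhfp, at 0.29 ± 0.083, and Grip1, at 0.19 ± 0.063, lay above 0 in both regions. With 49.9% of all genes above 0 in mPFC, glucocorticoid response genes lay above 0 in 21 of 23 (median 0.18), immediate early genes in 17 of 18 (median 0.21) and synaptic adhesion genes in 22 of 29 (median 0.027). Of the named genes 63 of the 87 tested in both regions had the same sign, and of all genes 54.5%. Of the 706 genes tested in both that had an unadjusted p under 0.05 in CeA the share was 62.0%. Some mice gave both regions, and the difference between the regions was not tested.

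**Figure D5:**
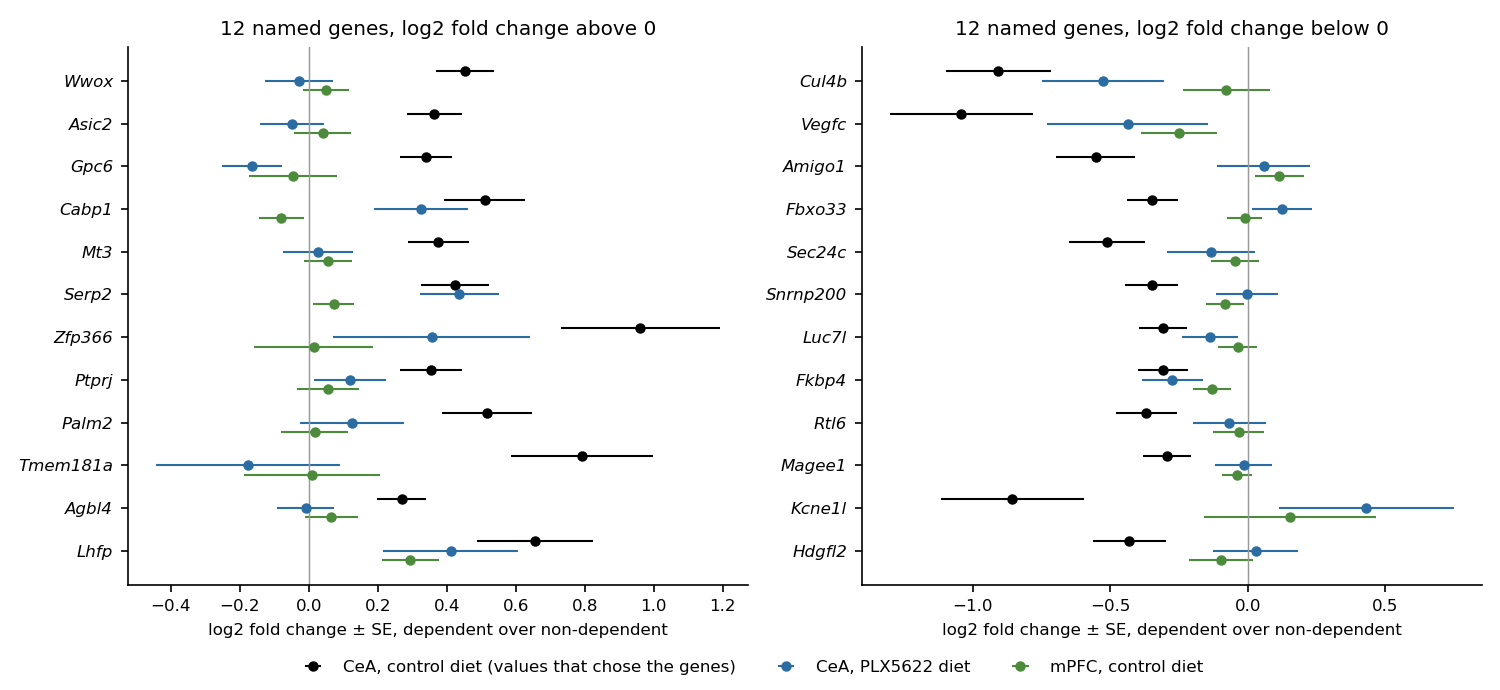
Log2 fold change ± SE (dependent over non-dependent) of the 12 named genes of smallest p in each direction, for CeA on control diet, whose values chose the genes, CeA on the PLX5622 diet and mPFC on control diet. Serp2 and Lhfp lie above 0 in all 3 comparisons, and Wwox, Asic2 and Agbl4 lie within 0.07 of 0 outside CeA on control diet.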

How the data were processed

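The deposited files hold raw counts of reads per Ensembl gene, which the authors made from 3'-biased libraries of total homogenate RNA. The submitters' processing notes name HTSeq 0.11.0 (a read counter), Bowtie2 2.3.4.3 (an aligner), FastQC 0.11.8, R 3.5.1 and DESeq2 1.10.1, and the builds mm10 and GRCm38.p6. Strand, removal of duplicate molecules and intronic counting are open (not given in the sources used here), so overlapping and antisense genes are uncertain. Counting error at these depths is included in the spread between mice.

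The CeA files list 56350 gene identifiers, of which 55394 matched GENCODE M21, which gave names and GRCm38 positions. Entries for spike-in RNA (92) and HTSeq summaries (5) were left out, and 72.0% to 73.4% of reads lay in genes. No pair of libraries of the same group, dependent or non-dependent on control diet, agreed within sampling noise (chi-square per gene 1.30 to 3.54). Pairs across the groups were not compared.

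All 19 CeA libraries were fitted together with edgeR 4.0.16 in R 4.3.3. Of these libraries 8 came from mice on the PLX5622 diet, given at 1200 mg/kg of chow with 28 days of pretreatment. The fit used genes kept by filterByExpr (10 counts, 15 in total), TMM scaling and the robust quasi-likelihood F-test, adjusted by Benjamini-Hochberg over all genes. The current rather than the earlier form of that test was chosen after both had been run. The mPFC libraries were fitted separately. Alternatives used DESeq2 1.42.0, limma 3.58.1 and sva 3.50.0. Fits were tested on simulated data. Gene names were chosen by rule: the 12 protein-coding genes with the smallest p in each direction, and of each list the 2 members with the smallest p. Some of these are not reported here. The lists and that rule were chosen with earlier results of these data known. Promoters and motif windows came from RefSeq (GRCm38.p6, 32851 promoters).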

Additional observations from a re-analysis of the deposited data

Results flagged for a closer look

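In 186 groups of values examined (each named gene and each library measure, in the dependent and the non-dependent mice), 14 had 1 mouse farther from the others than Dixon's 95% limit allows, and chance alone gives about 1 in 20 groups. No explanation was tested for any of them.

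Of these values, 6 are of dependent mouse 11, and 5 of them are the highest of the dependent mice: Asic2 at 969 CPM with the next mouse at 792 CPM, Gabrg3 at 566 CPM, Cacna2d3 at 531 CPM, Nrxn3 at 3247 CPM and Oprk1 at 29.8 CPM. The other, Hspa1b at 9.77 CPM, is the lowest. Mouse 11 also had the highest summed CeA identity and striatal markers of the dependent libraries and the highest share of counts in long genes, 38.9%. Oprk1 set non-dependent mouse 19 apart as well, at 28.7 CPM.

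Dependent mouse 2 was set apart by the MHC class I gene H2-K1 at 68.2 CPM, haemoglobin Hbb-bs at 52.8 CPM and the glutathione transferase gene Gstm1 at 255 CPM. These 3 values were given above beside the sum of the border macrophage list. The splicing factor gene Srsf9 was at 76.5 CPM in dependent mouse 1 and at 59.5 CPM in the next dependent mouse. Magee1, a member of the MAGE family, was at 134.3 CPM in non-dependent mouse 14, the highest of its group. The library of non-dependent mouse 16 was the deepest of its group, with 1749531 counts in genes and 18362 genes detected.

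The spike-in entries, which no comparison used, held 11745 counts in dependent 1, 12174 in dependent 9 and 16717 in dependent 11, where the non-dependent libraries held 85 to 159.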

How the results depend on the processing

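No paired analysis was possible because the dependent and non-dependent mice share no mouse numbers. The 0 genes called in CeA became 1 with DESeq2, 1 with the earlier form of edgeR's test, 0 with limma voom and 23 of 25258 with no filter on low counts (1257 at an unadjusted p under 0.05), and 0 to 1 when 1 library was left out. The gene called was Wwox in each of the first 2 and without non-dependent 16, non-dependent 20 or dependent 9 (adjusted p 0.0290, 0.0333 and 0.0212). The interaction gave 1 gene with no filter and 0 to 0 with a library left out. In mPFC the 1 gene called became 3 with no filter, 0 without the libraries holding spike-in RNA and 0 to 2 with a library left out: 2 without non-dependent 17 or 33, and 0 without non-dependent 19, 20, 34 or 35. The gap of long over short genes, 0.077, was 0.0030 with the share of long genes as a covariate, 0.0072 with offsets over gene span, both of which remove it by construction, and 0.044 to 0.094 with a library left out, lowest without non-dependent 17.

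Of the log2 fold changes of named genes, 2695 under an alternative kept their direction and side of the threshold, 17 passed the threshold and 14 turned sign. Without the libraries holding spike-in RNA Rxrg was at -0.058, Slc6a11 at 0.073, Gad2 at -0.066, Crhbp at -0.031 and Mgll at -0.059. With 1 library left out Slc6a11 ran from -0.18 (without dependent 11) to 0.058 (without dependent 9), and Gad2 from -0.070 (without dependent 11) to 0.13 (without dependent 1). Gad2 was at -0.0077 with 1 surrogate variable and -0.062 with the long-gene covariate, which also put Kcnq3 at -0.038, Cacnb4 at -0.055, Cacna2d3 at -0.10 and mt-Nd6 at 0.060. With dependent 1, 9 and 11 as the only dependent mice, chosen after seeing the data, Ntsr2 was at 0.022. Apart from the constructions named, the cause was not tested. Without the libraries holding spike-in RNA the medians of further lists also changed sign, to 0.029 for cortical neurons, 0.0020 for activated microglia, 0.063 for cholesterol synthesis, 0.0042 for mitochondrially encoded genes and 0.021 for SR splicing factors. Other medians moved without a change of sign, to 0.047 for neurotrophins, 0.067 for glutamate receptors, 0.066 for potassium channels and 0.074 for opioids. Striatal neurons were at -0.17, GABA synthesis and transport at -0.076, and the respiratory chain at -0.10. Immediate early genes were at 0.018, clock genes at 0.037, heat shock at -0.068, and interferon and MHC class I at 0.97. Of list medians, 1041 moved by less than the spread between mice and 13 by more.

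At 1242295 to 1968971 counts per library and 5 against 6 mice, the median standard error was 0.14 on the log2 scale. Differences well above that size were not called in the main edgeR test, such as Wwox at 0.45 ± 0.085 and Cul4b at -0.91 ± 0.19.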

Other observations

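Genes outside the lists, chosen after their values were seen, include some of the largest differences between single mice. Sprr2f, a small proline-rich protein of epithelia, was at 22.8 and 11.4 CPM in non-dependent 15 and 16 and at no more than 0.76 CPM in the other 9 libraries. Prap1, also an epithelial gene, was at 36.2 and 13.7 CPM in the same mice, and the complement gene C3 at 33.1 and 10.8 CPM, with no other library above 1.46 CPM for either. The other 4 non-dependent mice were as low as the dependent ones in all 3 genes.

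The smooth muscle myosin gene Myh11 was at 3.99, 7.74, 7.23, 8.32 and 5.65 CPM in dependent and 6.07 to 29.1 (median 9.93) CPM in non-dependent mice, highest in non-dependent 15 and 16 too, and overlapping otherwise. Vgll3, a cofactor of TEAD transcription factors, was at 3.99, 2.11, 0.723, 1.28 and 0 CPM against 1.47 to 16.5 (median 7.65) CPM, with non-dependent 17 and 19 inside the dependent range (-2.36 ± 0.69; edgeR adjusted p = 0.512).

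The long non-coding RNA gene Sox2ot, which spans the gene of the transcription factor Sox2, was at 373, 343, 359, 325 and 355 CPM in dependent and 247 to 323 (median 267) CPM in non-dependent mice (0.35 ± 0.084; edgeR adjusted p = 0.238). All dependent mice lay above all non-dependent ones, and the value was 0.25 ± 0.26 in mPFC and -0.034 ± 0.098 on the PLX5622 diet.

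Immediate early genes lay above 0 in 18 of 18 on the PLX5622 diet (median 0.30) and in 17 of 18 in mPFC (median 0.21), against 13 of 18 (median 0.055; -0.030 without dependent 1 to 0.15 without dependent 11) in CeA on control diet, values set side by side with no test of the difference.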
